A study of Mus musculus with 8 samples.

Results

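The 9 genes described here, Nos2, Arg1, Arg2, Ass1, Asl, Slc7a1, Slc7a2, Gch1 and Odc1, encode enzymes and transporters through which a cell takes up L-arginine, turns it into nitric oxide or ornithine, and regenerates it. They were chosen by name for their roles in these pathways, with earlier results of these data known, and all 9 of 9 were found among the 52636 Ensembl genes of the count table through their GENCODE vM21 symbols. RNA was measured in primary microglia of wild-type mice, whose strain the labels give as C57BL/6 and the methods of the study, for pups, as C57BL/6N, kept in DMEM to which 10% fetal bovine serum and CSF-1, a growth factor on which these cells depend, were added, the latter at 10 ng/ml. The LPS group received 5 µg/ml lipopolysaccharide, a component of the bacterial outer membrane sensed by Toll-like receptor 4, for 24 h, and the Vehicle group received vehicle for the same time. Each group held 4 libraries, which the labels call biological replicates 1 to 4 without saying whether they came from separate cultures, so p-values measure the spread between these libraries. The cells were shaken off mixed glial cultures of neonatal brain, and whether each of the 2 groups of 4 was handled in a batch of its own is not given in the sources used here, so such a batch and the treatment cannot be told apart.

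Inducible nitric oxide synthase (Nos2) oxidizes arginine to nitric oxide and citrulline and needs tetrahydrobiopterin, whose synthesis begins with GTP cyclohydrolase (Gch1). Argininosuccinate synthase (Ass1) and argininosuccinate lyase (Asl) turn citrulline back into arginine. The arginases, cytosolic Arg1 and mitochondrial Arg2, compete for the same substrate and split it into urea and ornithine, which ornithine decarboxylase (Odc1) carries on into putrescine and the other polyamines. Arginine enters the cell through cationic amino acid transporters, among them Slc7a1 and Slc7a2. In rodent macrophages and microglia the synthase is the textbook product of bacterial stimulation, and Arg1 that of interleukin-4. Messenger RNA was measured here, and nitric oxide, amino acids and enzyme activity were not.

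Library totals lay between 20071921 and 30604447 counts. Levels are given as CPM, counts scaled to the library total after TMM normalization. A count of 3, taken as the floor, amounts to 0.0952 to 0.18 CPM depending on the library, and floors and counting intervals cover counting error only. TMM factors were 1.21 to 1.32 in Vehicle and 0.701 to 0.833 in LPS libraries. With library totals alone the log2 changes of all 13847 genes tested moved by a median of -0.68, and 1988 genes were called higher and 8457 lower, against 4191 and 4686 with TMM. The 8 microglial markers summed to 6105 to 8203 CPM in Vehicle and 1423 to 1887 CPM in LPS libraries, with 6 of 8 lower and none higher after LPS. The 6 neutrophil markers summed to 0.0692 to 0.875 CPM in Vehicle and 572 to 1176 CPM in LPS libraries, there nearly all from S100a8, while S100a9 and Mpo had no count in any library. The 6 lymphocyte markers summed to at most 1.09 CPM, with Cd3e, Cd3g and Ncr1 at 0 throughout. Markers of border macrophages and monocytes, 6 in all, summed to 560 to 1009 CPM in Vehicle and 40.4 to 74.9 CPM in LPS libraries. Mrc1 made up most of that sum in every library, with 524 to 941 CPM in Vehicle and 29.6 to 44.6 CPM in LPS libraries. Pf4 was also called lower, Ccr2 did not pass, and Lyve1, Cd163 and Ly6c2 were too low to be tested. Summed levels in Vehicle and LPS libraries were 18.2 to 43.3 and 39.4 to 119 CPM for 8 astrocyte markers, 92.9 to 146 and 17.6 to 23.5 CPM for 8 markers of the oligodendrocyte lineage, 31.1 to 73.5 and 163 to 254 CPM for 6 endothelial markers with Cldn5 at 0, and 3.76 to 7.25 and 7.57 to 24.95 CPM for 7 fibroblast and mural markers. Of the astrocyte markers only Gja1 was called higher, with at most 1.07 CPM in Vehicle and 28.92 to 98.15 CPM in LPS libraries. Gfap, Aqp4 and Aldh1l1 were called lower. Of the fibroblast and mural markers only Dcn was called higher, with at most 0.245 CPM in Vehicle and 4.71 to 19.4 CPM in LPS libraries. All 3 endothelial markers tested, Flt1, Pecam1 and Cdh5, were called higher, and Cldn5, Tek and Esam were at or under the floor in every library. Most of the endothelial sum was Flt1, with 25.0 to 71.8 CPM in Vehicle and 86.3 to 197 CPM in LPS libraries. Several of these marker lists differ between the groups, as the 9 genes do, and their part in the results below was not tested. In bulk RNA, fewer cells of a type and less RNA per cell cannot be told apart.

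The comparison of LPS with Vehicle asks how the arginine pathways respond to the stimulus. All 9 passed the filter on low counts, Arg1 through its LPS libraries alone. After LPS, 8 of the 9 genes rose, none fell, and Asl did not pass the test (edgeR quasi-likelihood test, Benjamini-Hochberg adjusted p under 0.05 over all genes tested). Many genes changed in these cells, and 30.3% of all genes tested were called higher and 33.8% lower. The median log2 fold change was 2.53 over the 9 genes and -0.11 over all genes tested. By a log2 fold change of at least 2, a size reached by 7.08% of all genes tested, 7 members rose, and 4 of them, Nos2, Arg1, Slc7a2 and Ass1, rose by at least 3, as did 4.11% of all genes. In 8 members the libraries of the 2 groups did not overlap, LPS being higher, as was the case for 28.7% of all genes tested. The direction of these 8 was the same with each scaling tried, whereas that of Asl turned negative with library totals alone.

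**Figure D1:**
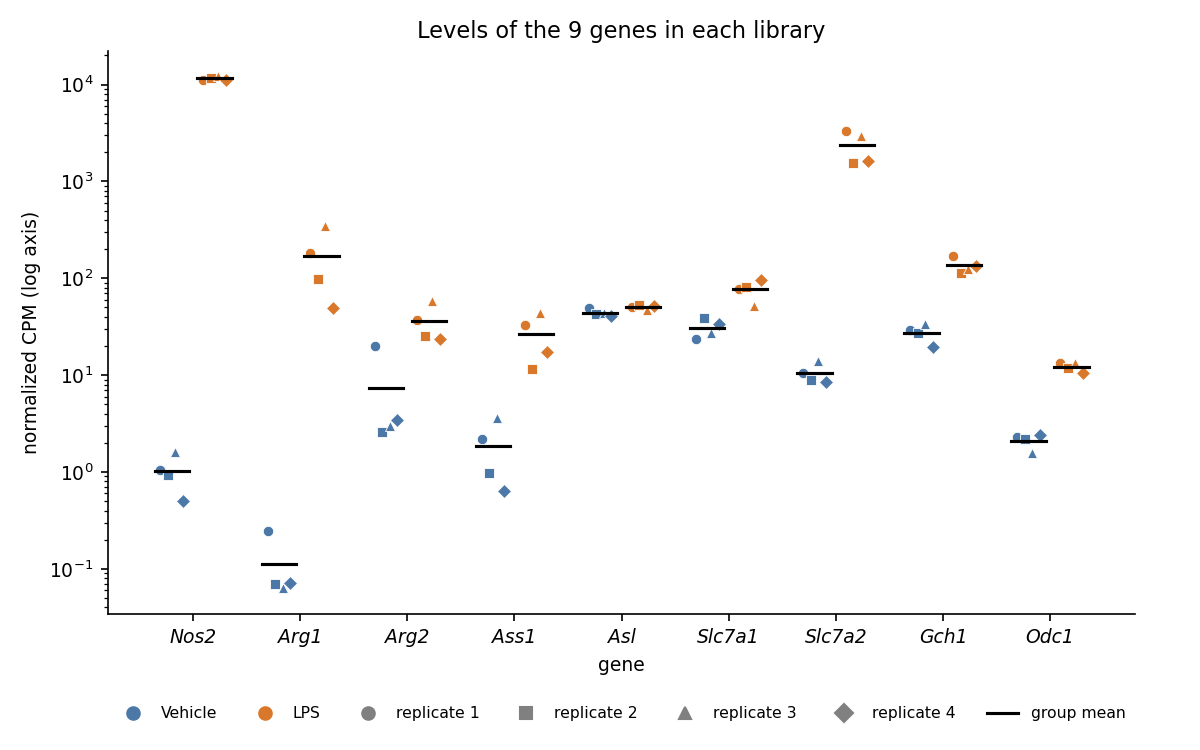
Normalized CPM (log axis) of each of the 9 genes in each library, with Vehicle in blue, LPS in orange, marker shapes for the replicate numbers and black bars for group means (n = 4). The groups are apart in every gene but Asl, where Vehicle spans 40.8 to 49.1 CPM and LPS 47.2 to 53.4 CPM.

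Nos2, on chromosome 11 at 78920787 to 78960254 of GRCm38, plus strand, went from near absence to one of the most abundant transcripts. The Vehicle libraries, replicates 1 to 4, held 30, 27, 51 and 14 reads of it, or 1.05, 0.934, 1.62 and 0.497 CPM. The LPS libraries held 187890, 214760, 261105 and 207386 reads, or 11244, 11695, 12178 and 11219 CPM. The stimulated libraries thus lay close together, the highest 1.09 times the lowest, while the Vehicle libraries spanned 3.25 times. Its mean rose from 1.02 ± 0.461 to 11584 ± 452 CPM (SD, n = 4 each), a log2 fold change of 13.45 ± 0.41 (SE, adjusted p = 3.75e-08) or 11180-fold. From the summed reads, 122 in Vehicle and 871141 in LPS, the ratio of CPM was 11155, with an exact counting interval of 9343 to 13433 (95%). Counted per kilobase of exon among all genes tested, Nos2 moved from rank 12655 to rank 16.

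Gch1 supplies the cofactor that the synthase needs, and it rose too, by a far smaller fold. Its levels were 29.4, 27.5, 33.8 and 19.4 CPM in the Vehicle libraries and 169.9, 113, 124 and 135 CPM in the LPS libraries. The lowest stimulated library thus stood well above the highest control. On average it rose from 27.5 ± 6.03 to 136 ± 24.6 CPM (SD, n = 4 each), a log2 fold change of 2.30 ± 0.19 (SE, adjusted p = 6.37e-06) or 4.93-fold. The gene lies on the minus strand of chromosome 14 at 47153895 to 47189413. The promoter table of RefSeq (GRCm38.p6, 250 bases before to 50 after each start) matched 4 of the 9 members, namely Ass1, Slc7a1, Odc1 and Gch1, and did not hold Nos2, Arg1, Arg2, Asl or Slc7a2. The 250 bases before the start of Gch1 (chr14:47189414-47189663, minus strand) are printed because they hold letters of factors known to act downstream of Toll-like receptors, in capitals.
Gch1 promoter: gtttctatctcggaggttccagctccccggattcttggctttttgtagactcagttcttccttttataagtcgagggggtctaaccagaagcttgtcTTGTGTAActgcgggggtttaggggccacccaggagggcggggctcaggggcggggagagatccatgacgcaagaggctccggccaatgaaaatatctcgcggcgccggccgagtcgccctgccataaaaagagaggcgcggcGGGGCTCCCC
The first capitals, TTGTGTAA at -153 to -146, match the C/EBP motif TTNCNNAA on the opposite strand, and the second, GGGGCTCCCC at -10 to -1, match the κB consensus on both strands. On either strand 40.7% of 32851 promoter windows of the same length hold that C/EBP motif and 8.46% the κB consensus. A match is a description of the letters, and no binding was measured.

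**Figure D2:**
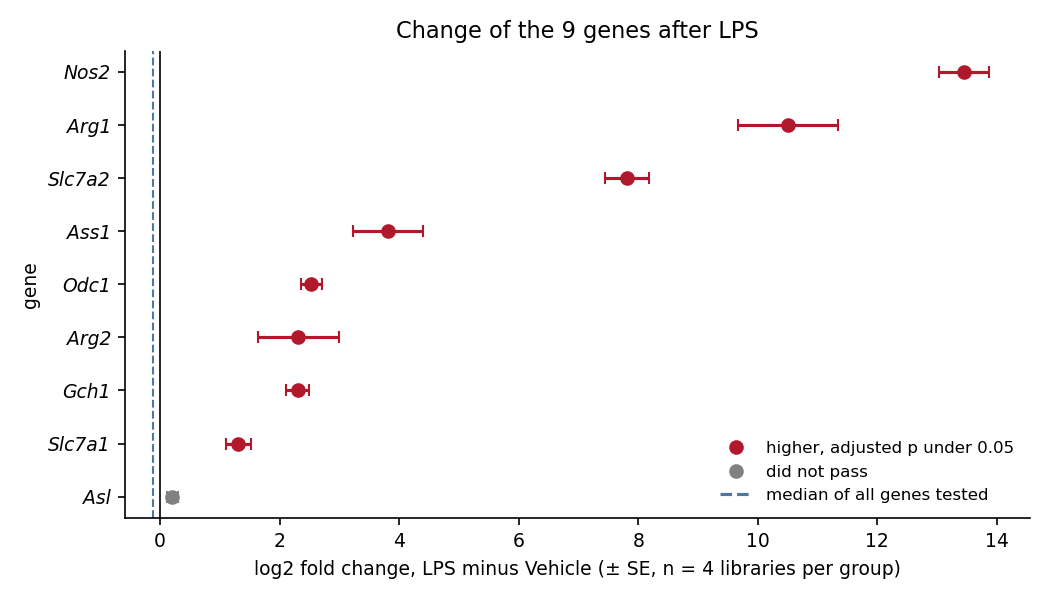
Log2 fold change of the 9 genes, LPS minus Vehicle, with its SE (edgeR, 4 libraries per group), red where the adjusted p was under 0.05, with the median of all genes tested (-0.11) as a dashed line. Nos2 (13.45), Arg1 (10.51) and Slc7a2 (7.81) stand apart from the other 5 that rose, which lie between 1.31 and 3.81.

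Both arginine transporters rose, Slc7a2 far more than Slc7a1. Slc7a2 (chromosome 8, 40862396 to 40922308, plus strand) had 10.6, 8.93, 13.99 and 8.59 CPM in the Vehicle libraries and 3328, 1562, 2932 and 1642 CPM in the LPS libraries. LPS replicates 1 and 3 were the higher pair, by up to 2.13 times. On average it rose from 10.5 ± 2.47 to 2366 ± 898 CPM (SD, n = 4 each), a log2 fold change of 7.81 ± 0.37 (SE, adjusted p = 3.03e-07) or 225-fold, next in size to Nos2 and Arg1. A gene on the opposite strand, Gm26584, overlaps 6.95% of its exon bases, and it had at most 71 reads in a library, LPS replicate 1, where Slc7a2 had 55613.

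Slc7a1 (chromosome 5, 148327410 to 148399904, minus strand), the transporter found in most cell types, had 23.8, 39.2, 27.0 and 34.0 CPM in the Vehicle libraries and 77.8, 81.7, 51.8 and 96.0 CPM in the LPS libraries. The groups did not overlap, the lowest LPS library being replicate 3. Its mean went from 31.01 ± 6.93 to 76.8 ± 18.4 CPM (SD, n = 4 each), a log2 fold change of 1.31 ± 0.21 (SE, adjusted p = 0.000432) or 2.48-fold. The 250 bases before its start (chr5:148399905-148400154, minus strand) are shown with an AP-1 motif, TGANTCA, in capitals.
Slc7a1 promoter: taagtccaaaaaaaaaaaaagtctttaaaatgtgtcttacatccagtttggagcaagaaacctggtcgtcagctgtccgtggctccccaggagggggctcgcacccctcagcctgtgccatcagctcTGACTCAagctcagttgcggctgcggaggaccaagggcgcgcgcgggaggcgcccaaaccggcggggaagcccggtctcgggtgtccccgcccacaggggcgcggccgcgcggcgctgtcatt
The match, TGACTCA, lies at -123 to -117, and 7.81% of all promoter windows hold this motif on either strand. A second start of the gene in the table, at a window of chr5:148392766-148393065, held a GAS motif (TTCNNNGAA, in 8.3% of windows) and a C/EBP motif. The windows of Ass1 and Odc1 held none of the κB, C/EBP, AP-1, GAS, ISRE core and CRE (TGACGTCA) letters, and that of Ass1 held an E-box (CACGTG, in 7.15% of windows) at -36 to -31 and, within it, the core ACGTG of the hypoxia response element (in 19.6%).

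Of the pair that regenerates arginine from citrulline, Ass1 rose and Asl did not pass. Ass1 (chromosome 2, 31470207 to 31520672, plus strand) had 2.17, 0.969, 3.65 and 0.639 CPM in the Vehicle libraries and 32.8, 11.7, 43.6 and 17.2 CPM in the LPS libraries. The libraries of both groups were widely spread, by 5.71 times in Vehicle and 3.73 times in LPS, and the groups did not overlap. The mean rose from 1.86 ± 1.36 to 26.3 ± 14.6 CPM (SD, n = 4 each), a log2 fold change of 3.81 ± 0.59 (SE, adjusted p = 0.000319) or 14.1-fold. Without Vehicle replicate 3, the highest control, the log2 fold change was 4.43 (21.6-fold).

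The level of Ass1 is uncertain, because 38.6% of its 50-base windows, the read length, also occur in the processed pseudogene Gm5424. Gm5424 had 218, 74, 367 and 43 reads in the Vehicle libraries and 1383, 682, 2453 and 1055 reads in the LPS libraries. In each library that was 2.39 to 3.52 times the count of Ass1 itself, and its log2 fold change was 3.64. Of all genes tested, as seen once the values were known, Gm5424 had the profile nearest to that of Ass1. The root mean square difference of centred log2 CPM, with 0.5 CPM added before the logarithm, was 0.29 over 8 libraries. Summed, Ass1 and Gm5424 rose from 7.70 ± 6.06 to 99.2 ± 47.9 CPM (SD, n = 4 each), 12.9-fold.

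Asl (chromosome 5, 130011258 to 130029247, minus strand) had the steadiest level of the 9 genes in Vehicle libraries, the highest 1.20 times the lowest. It measured 49.1, 42.7, 43.9 and 40.8 CPM in the Vehicle libraries and 50.6, 53.4, 47.2 and 51.8 CPM in the LPS libraries, so that the groups overlapped. The means were 44.1 ± 3.56 and 50.8 ± 2.66 CPM (SD, n = 4 each), with a log2 fold change of 0.20 ± 0.09 (SE, adjusted p = 0.0788). This value depends on the scaling, being 0.26 (adjusted p = 0.0387) with DESeq2 and -0.47 (adjusted p = 0.00338) with library totals alone. It passed the threshold, as higher, without Vehicle replicate 1 (0.29, adjusted p = 0.0387) and without LPS replicate 3 (0.24, adjusted p = 0.0269).

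Both arginases rose, from very different starting levels. Arg1 (chromosome 10, 24915221 to 24927484, minus strand) was close to undetected in Vehicle libraries, with 7, 2, 2 and 2 reads, or 0.245, 0.0692, 0.0634 and 0.071 CPM. The LPS libraries held 3049, 1789, 7440 and 915 reads, or 182, 97.4, 347 and 49.5 CPM. The stimulated libraries spanned 7.01 times, the widest range of the 9 genes in LPS libraries, with replicate 3 highest and replicate 4 lowest. The mean rose from 0.112 ± 0.0886 to 169.1 ± 131 CPM (SD, n = 4 each), a log2 fold change of 10.51 ± 0.84 (SE, adjusted p = 5.5e-06). In 3 of the 4 Vehicle libraries the count was at or under the floor of 3 counts, and the ratio of summed CPM, 1585, had an exact counting interval of 927 to 2978. Without LPS replicate 3 the log2 fold change was 9.89 and without Vehicle replicate 1 it was 11.19.

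Arg2 (chromosome 12, 79130777 to 79156301, plus strand) was the more frequent arginase transcript of the unstimulated cells. Its levels were 20.2, 2.60, 2.98 and 3.41 CPM in the Vehicle libraries and 37.3, 25.4, 58.8 and 23.4 CPM in the LPS libraries. Vehicle replicate 1, with 576 reads against 75 to 96 in the others, reached nearly to the lowest LPS library, and the groups did not overlap. The mean rose from 7.29 ± 8.59 to 36.2 ± 16.2 CPM (SD, n = 4 each), a log2 fold change of 2.32 ± 0.67 (SE, adjusted p = 0.0127) or 4.98-fold. Without Vehicle replicate 1 the log2 fold change was 3.62 (adjusted p = 4.66e-05), 12.3-fold. Vti1b and Gm48780 overlap 28.1% of the exon bases of Arg2 from the opposite strand, Vti1b with 1061 to 1508 reads per library. Whether counting used the strand is not given in the sources used here, so reads of that overlap cannot be assigned with certainty.

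Odc1 (chromosome 12, 17544794 to 17551505, plus strand), the entry into polyamine synthesis, rose evenly. Its levels were 2.27, 2.18, 1.59 and 2.41 CPM in the Vehicle libraries and 13.3, 11.9, 13.2 and 10.6 CPM in the LPS libraries. Each group was tight, within 1.52 times in Vehicle and 1.25 times in LPS. The mean rose from 2.11 ± 0.365 to 12.2 ± 1.26 CPM (SD, n = 4 each), a log2 fold change of 2.53 ± 0.18 (SE, adjusted p = 2.28e-06) or 5.79-fold. Its absolute level is uncertain, since 24.3% of its 50-base windows occur in other transcripts. Those sharing most are the pseudogenes Gm7993, Gm17709, Gm9115 and Gm9260, which themselves held at most 9 reads in a library. The reads of any further gene that shares windows were not examined.

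Ratios of members within a library do not depend on the scaling between libraries, and 5 pairs were compared by a two-sided exact permutation test over the 70 divisions of the 8 libraries, on log2 of counts with 0.5 added. The synthase gained on Arg1, the enzyme that competes for its substrate, by 3.36 on the log2 scale. The log2 ratio of Nos2 to Arg1 was 2.02, 3.46, 4.37 and 2.54 in the Vehicle libraries and 5.95, 6.91, 5.13 and 7.82 in the LPS libraries. The Vehicle side of every ratio that holds Arg1, here and below with Arg2 and Odc1, rests on 2 to 7 reads of Arg1. As Arg1 passed the filter on low counts through its LPS libraries alone, the p-values of its ratios add no support to its rise. Between the arginases the balance of counts turned, the log2 ratio of Arg1 to Arg2 going from -5.42 ± 0.58 to 1.97 ± 0.65 (SD, n = 4 each). Likewise Slc7a2 was the rarer of the transporters by count in Vehicle libraries, with a log2 ratio to Slc7a1 of -1.56 ± 0.59, and the more frequent in LPS libraries, at 4.90 ± 0.85. The log2 ratio of Ass1 to Asl rose from -4.87 ± 1.05 to -1.13 ± 0.94, and that of Odc1 to Arg1 turned from 4.23 ± 0.76 to -3.43 ± 1.06. These are ratios of counts, and the group means per kilobase stood in the same order in the pairs that turned. In each of the 5 ratios the groups did not overlap, and the exact permutation test gave p = 0.0286 for each, also after adjustment over the 5, the smallest p that 4 against 4 libraries allow. With the libraries paired by replicate number, an exact sign-flip test of the 4 differences gave p = 0.125 for each, the smallest that 4 pairs allow.

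**Figure D3:**
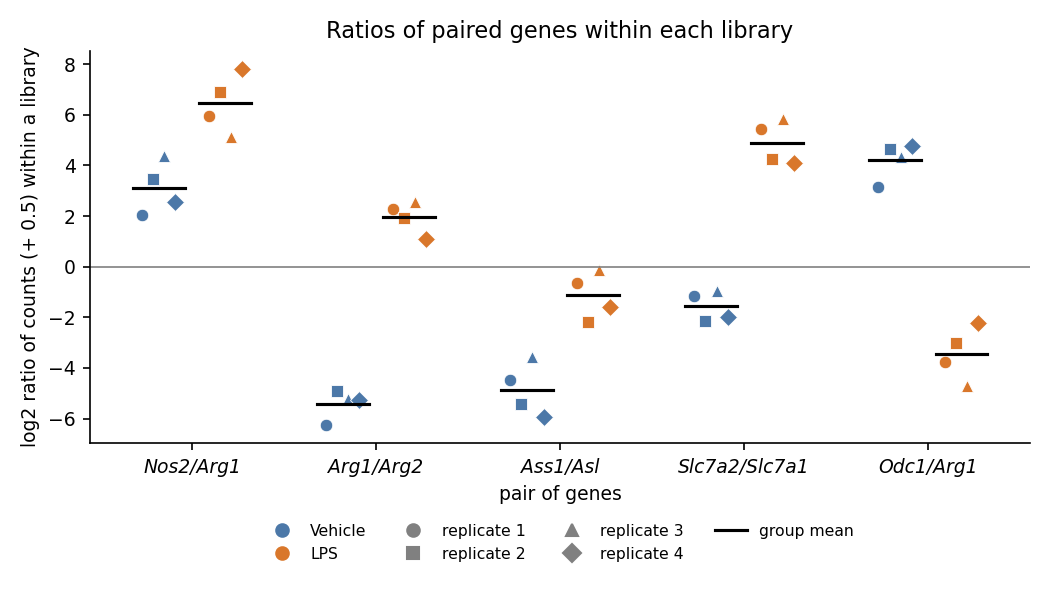
Log2 ratio of the counts (with 0.5 added) of 5 pairs of members within each library, with Vehicle in blue, LPS in orange, marker shapes for replicate numbers and black bars for group means. Nos2/Arg1, Arg1/Arg2, Ass1/Asl and Slc7a2/Slc7a1 are higher and Odc1/Arg1 is lower in all 4 LPS libraries.

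Per kilobase of exon, the order of the 9 genes was rearranged. In Vehicle libraries Asl led with 9.13 ± 0.738 CPM per kb (SD, n = 4), followed by Arg2 at 5.10 ± 6.02 and Gch1 at 4.403 ± 0.964. The place of Arg2 rested on Vehicle replicate 1, with 14.1 CPM per kb against 1.82 to 2.39 in the other Vehicle libraries. Neighbours in that order overlapped down to Slc7a1 at 2.69 ± 0.601. Slc7a2, apart from Slc7a1, came next, then Ass1 and Odc1. They lay between 0.621 and 1.15 CPM per kb, and Ass1 overlapped with both Slc7a2 and Odc1. Nos2 (0.232 ± 0.105) and Arg1 (0.0503 ± 0.0398) were last, each apart from the gene before. In LPS libraries Nos2 led with 2626 ± 102.5 CPM per kb, apart from Slc7a2 at 259 ± 98.2, which was apart from Arg1 at 75.9 ± 58.7. Arg1 overlapped with Arg2 (25.4 ± 11.4), and Arg2 with Gch1 (21.7 ± 3.93). Ass1 (10.9 ± 6.04) and Asl (10.5 ± 0.551) overlapped, and Slc7a1 (6.66 ± 1.6) and Odc1 (3.60 ± 0.371) closed the order, each apart from the gene before.

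**Figure D4:**
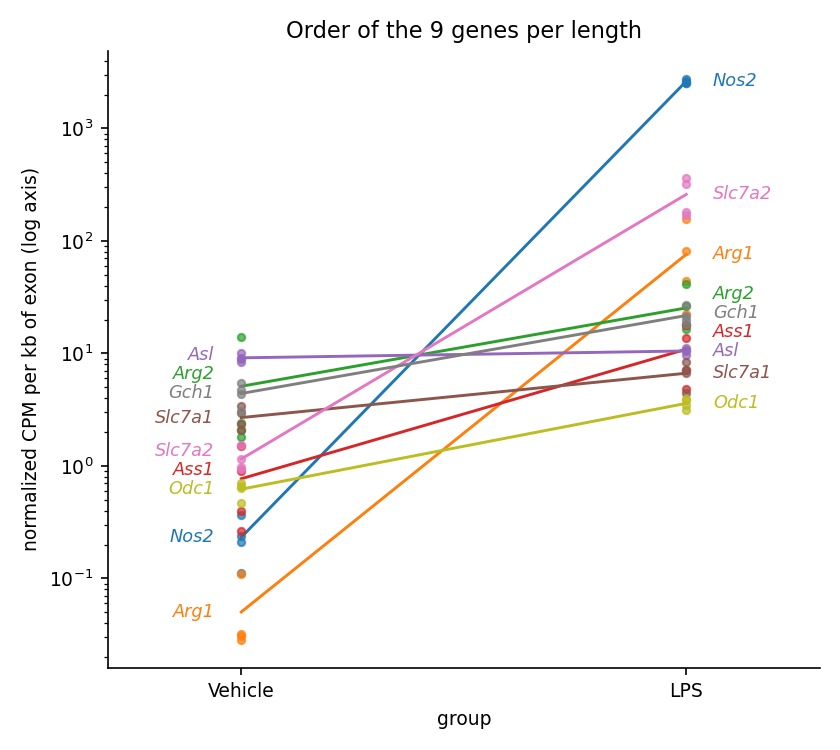
Normalized CPM per kb of exon (log axis) of the 9 genes in the Vehicle and LPS libraries, with points for libraries and lines joining group means. Nos2 and Arg1 cross all or most of the other genes, from 0.232 to 2626 and from 0.0503 to 75.9 CPM per kb, while Asl stays near 10.

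The LPS libraries were not ordered alike for every member. Replicate 3 was the highest of the LPS libraries for Nos2, Arg1, Arg2 and Ass1, and the lowest for Asl and Slc7a1. Replicate 1 was highest for Slc7a2, Gch1 and Odc1. Of the LPS libraries, replicate 3 also had the highest summed level of fibroblast and mural markers, 24.95 CPM against 7.57 to 11.4 CPM, the highest mitochondrial share of counts, 0.237% against 0.114% to 0.151%, and the lowest endothelial sum, 163 CPM against 235 to 254 CPM. In replicate 3, Dcn alone gave 19.4 CPM of the fibroblast and mural sum, with Col1a1 at 0.0933 CPM and Col1a2 and Rgs5 at 0. Of the endothelial markers, Flt1 was lowest in that library, at 86.3 CPM, and Pecam1 highest, at 68.65 CPM. The part of these marker levels and of the mitochondrial share in the levels of the 4 genes was not tested. Among Vehicle libraries, replicate 3 was highest for Nos2, Ass1, Slc7a2 and Gch1, and replicate 4 was lowest for the same 4 genes.

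Profiles over the 8 libraries were compared by the root mean square difference of centred log2 CPM, with 0.5 CPM added before the logarithm. The genes nearest to Nos2 were Ptgs2 (1.17), the inducible cyclooxygenase, Il19 (1.17), a cytokine of the interleukin-10 family, and Mmp13 (1.28), a collagenase. Ptgs2 went from 6.43 to 10944 CPM, Il19 from 0.0524 to 959.7 CPM and Mmp13 from 17.8 to 23774 CPM. Nearest to Arg1 were Pdpn (0.49), a membrane glycoprotein, Trem1 (0.49), a receptor that amplifies inflammatory signals, and Slc7a2 (0.54), itself a member. The added 0.5 CPM exceeds the Vehicle means of Arg1 (0.112 CPM) and Il19, so it shrinks their changes in this measure. In the fit, the log2 fold change was 10.51 for Arg1 and 7.81 for Slc7a2, further apart than this measure shows. The difference between the groups dominates each of these profiles, and the likeness is a description.

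The other genes of the pathways, 87 in 8 lists, were more often lower than higher. Of these, 68 passed the filter on low counts, 14 were higher, 37 lower and 17 did not pass the test, with a median log2 fold change of -0.61 against -0.11 over all genes tested. The shares over all genes tested were 30.3% higher and 33.8% lower. With library totals alone 9 were called higher.

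**Figure D5:**
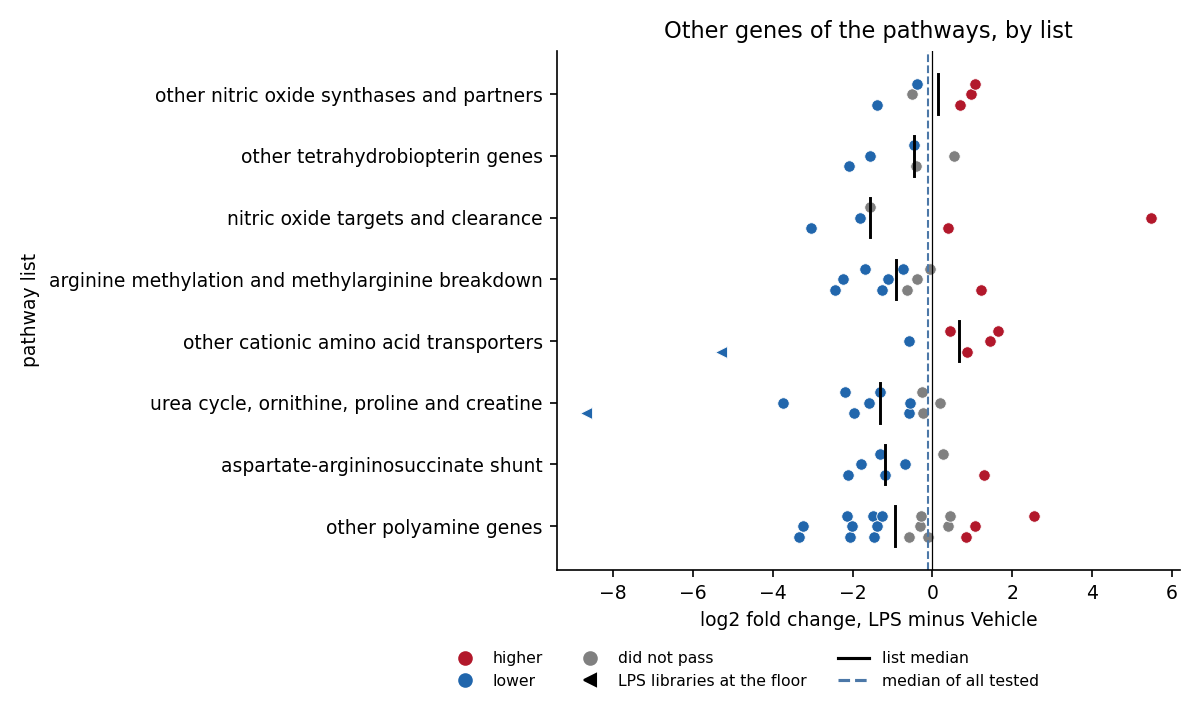
Log2 fold change (LPS minus Vehicle) of the 68 tested genes of the 8 pathway lists, red where higher, blue where lower and grey where the test was not passed, with black bars for list medians and a dashed line at the median of all genes tested (-0.11). Triangles mark Slc7a4 and Prodh, whose LPS libraries lie at the floor, and the rightmost point is Pde5a at 5.49.

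The other nitric oxide synthases were barely detected. Nos1, the neuronal synthase, had 11 reads in all Vehicle and 13 in all LPS libraries together, and Nos3, the endothelial one, was at or under the floor in every library, so neither was tested. Of the 6 of 8 genes of this list that were tested, 3 were higher and 2 lower (median 0.15). The synthases bind calmodulin, and of its genes Calm3 rose from 121 ± 6.71 to 235 ± 9.69 CPM (SD, n = 4 each; log2 fold change 0.96 ± 0.09, SE, adjusted p = 1.67e-05). Calm2 fell from 61.8 ± 4.02 to 47.0 ± 5.8 CPM (-0.39 ± 0.11, adjusted p = 0.00961). Of the 50-base windows of Calm2, 9.72% occur in other transcripts as well.

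In the rest of the tetrahydrobiopterin list 3 of 5 tested genes were lower and 2 did not pass (median -0.46). Spr, sepiapterin reductase, which completes the cofactor, fell from 11.98 ± 0.953 to 4.06 ± 1.13 CPM (SD, n = 4 each; log2 fold change -1.56 ± 0.21, SE, adjusted p = 0.000125). Qdpr, which regenerates tetrahydrobiopterin from its oxidized form, fell from 38.1 ± 1.32 to 8.98 ± 2.03 CPM (-2.08 ± 0.15, adjusted p = 3.04e-06), with 18.6% of its exon bases overlapped by Gm42413 on the opposite strand. Pts, the enzyme after Gch1, had 16.1 ± 0.785 and 12.2 ± 3.62 CPM (-0.40 ± 0.19, adjusted p = 0.0921), and did not pass. It passed as lower with replicate numbers as a block (-0.44, adjusted p = 0.0472), with upper quartile scaling (-0.57, adjusted p = 0.0192), with library totals alone (-1.10, adjusted p = 0.000239), at a filter of at least 10 counts in every library (-0.46, adjusted p = 0.0488) and without LPS replicate 3 (-0.60, adjusted p = 0.00464). Gchfr, the feedback regulator of the Gch1 protein, averaged 0.0238 CPM in Vehicle and 0.0888 CPM in LPS libraries and was not tested.

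Among targets and clearance of nitric oxide, 2 of 5 tested genes were higher and 2 lower (median -1.56). Neither count was steady, with 1 higher without Vehicle replicate 2 or 4 or LPS replicate 1 or 3, 1 lower without Vehicle replicate 2 or 4 or LPS replicate 4, and 0 in either direction at a filter of at least 10 counts in every library. Pde5a, a phosphodiesterase that breaks down the cyclic GMP made in response to nitric oxide, rose from 0.171 ± 0.0902 to 7.91 ± 4.88 CPM (SD, n = 4 each; log2 fold change 5.49 ± 0.59, SE, adjusted p = 3.36e-05). It passed the filter on low counts through the LPS libraries alone, with 2, 4, 6 and 8 reads in Vehicle and 224, 75, 228 and 65 in LPS libraries. Prkg1, the kinase that cyclic GMP activates, fell from 3.51 ± 1.37 to 0.42 ± 0.179 CPM (-3.04 ± 0.42, adjusted p = 0.000159). Its LPS libraries, with 4, 6, 10 and 12 reads, would not have passed the filter on low counts by themselves. Adh5, which reduces S-nitrosoglutathione, rose from 71.3 ± 1.79 to 94.2 ± 19.8 CPM (0.40 ± 0.14, adjusted p = 0.0315), and with library totals alone its value was -0.28 (adjusted p = 0.0979). This call was also lost without Vehicle replicate 2 or 4, or without LPS replicate 1 or 3 (adjusted p of 0.0535 to 0.0667), with upper quartile scaling (0.25, adjusted p = 0.154), with no filter (adjusted p = 0.0608) and with at least 10 counts in every library (adjusted p = 0.0572).

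In the list of arginine methylation and methylarginine breakdown 1 of 10 tested genes was higher and 6 lower (median -0.92). Prmt2, an arginine methyltransferase, rose from 20.7 ± 0.383 to 48.0 ± 2.86 CPM (SD, n = 4 each; log2 fold change 1.21 ± 0.09, SE, adjusted p = 2.53e-06). Prmt7, another member of the family, fell from 24.0 ± 3.22 to 5.12 ± 1.86 CPM (-2.24 ± 0.27, adjusted p = 7.1e-05). Of the dimethylarginine dimethylaminohydrolases, which clear the methylarginines that inhibit the synthases, Ddah2 fell from 7.49 ± 1.55 to 1.39 ± 0.892 CPM (-2.44 ± 0.49, adjusted p = 0.00168). Its LPS libraries, with 29, 43, 5 and 23 reads, would not have passed the filter on low counts by themselves. Ddah1 had 3.54 ± 2.23 and 2.30 ± 0.978 CPM (-0.62 ± 0.61, adjusted p = 0.388).

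Of the other transporters 4 of 6 tested genes were higher and 2 lower (median 0.66), and with library totals alone 2 were higher. Slc7a7, which exchanges cationic for neutral amino acids, rose from 43.6 ± 5.42 to 137.5 ± 29.3 CPM (SD, n = 4 each; log2 fold change 1.66 ± 0.16, SE, adjusted p = 1.93e-05). Slc3a2, the heavy chain with which it forms the transporter, rose from 265 ± 10.2 to 719 ± 58.3 CPM (1.44 ± 0.11, adjusted p = 4.08e-06). Slc7a6, a second light chain of that kind, fell from 32.9 ± 5.22 to 21.9 ± 3.46 CPM (-0.58 ± 0.16, adjusted p = 0.00915).

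Of the genes of the urea cycle and of ornithine, proline and creatine metabolism, 8 of 11 tested were lower and 3 did not pass (median -1.31), while without LPS replicate 3 there was 1 higher. Otc, which would carry ornithine on to citrulline, was at or under the floor in every library, and Cps1, Nags and Agmat had no count in any, the 4 being named together as the list's genes at the floor after their values were seen. Slc25a15, the mitochondrial ornithine carrier, fell from 9.90 ± 0.559 to 2.53 ± 0.131 CPM (SD, n = 4 each; log2 fold change -1.97 ± 0.14, SE, adjusted p = 2.58e-06). Oat, ornithine aminotransferase, fell from 73.1 ± 2.55 to 49.1 ± 2.27 CPM (-0.57 ± 0.08, adjusted p = 0.000192). The creatine enzymes, which also draw on arginine, fell as well. Gatm, the first of them, went from 110.8 ± 40.8 to 24.3 ± 8.55 CPM (-2.18 ± 0.35, adjusted p = 0.000451). Gamt, the second, went from 8.58 ± 0.789 to 0.635 ± 0.214 CPM (-3.74 ± 0.25, adjusted p = 1.83e-06). The LPS libraries held 48 reads of Gamt in all, against 1008 in Vehicle, and would not have passed the filter on low counts by themselves. Prodh, proline dehydrogenase, singled out after its values were seen, averaged 2.14 ± 0.0787 CPM in Vehicle libraries and had no read in any LPS library, at least 13.3-fold lower when each LPS library is set at its floor of 3 counts.

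The aspartate-argininosuccinate shunt supplies the aspartate with which Ass1 condenses citrulline, and 1 of its 7 genes was higher, 5 were lower and 1 did not pass (median -1.18). With DESeq2, with RLE scaling, without Vehicle replicate 1 and without LPS replicate 3, 2 were higher. Its mitochondrial aspartate-glutamate carriers went in opposite directions. Slc25a12 rose from 44.3 ± 4.28 to 108.8 ± 16.9 CPM (SD, n = 4 each; log2 fold change 1.297 ± 0.128, SE, adjusted p = 2e-05), and Slc25a13 fell from 16.2 ± 1.2 to 3.77 ± 1.45 CPM (-2.11 ± 0.25, adjusted p = 6.9e-05). Mdh1, the cytosolic malate dehydrogenase, fell from 144.5 ± 12.8 to 42.2 ± 7.3 CPM (-1.77 ± 0.14, adjusted p = 4.08e-06).

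Beyond Odc1, 3 of 18 tested polyamine genes were higher, 9 lower and 6 did not pass (median -0.93). Srm, spermidine synthase, fell from 8.82 ± 0.96 to 2.03 ± 1.01 CPM (SD, n = 4 each; log2 fold change -2.13 ± 0.36, SE, adjusted p = 0.000645). Amd1, which supplies the aminopropyl donor, had 4.83 ± 1 and 3.96 ± 0.627 CPM (-0.29 ± 0.21, adjusted p = 0.249), with 78.1% of its windows shared with other transcripts. With library totals alone Amd1 passed as lower (-0.97, adjusted p = 0.00457). Smox, spermine oxidase, rose from 59.6 ± 9.33 to 347 ± 17.5 CPM (2.54 ± 0.13, adjusted p = 4.97e-07), about as far as Odc1. Azin1, an inhibitor of the antizymes that mark the Odc1 protein for breakdown, rose from 200.6 ± 11.9 to 420.3 ± 105 CPM (1.07 ± 0.18, adjusted p = 0.000525). Paox, the acetylpolyamine oxidase, fell from 9.48 ± 2.74 to 0.997 ± 0.352 CPM (-3.24 ± 0.31, adjusted p = 1.72e-05, 28.5% of windows shared). Slc18b1, a vesicular polyamine transporter, fell from 4.42 ± 0.924 to 0.44 ± 0.194 CPM (-3.33 ± 0.35, adjusted p = 2.88e-05). The LPS libraries held 32 reads of Slc18b1 in all, against 514 in Vehicle, and would not have passed the filter on low counts by themselves. Sat1, which acetylates spermidine and spermine, had 164 ± 20.5 and 151 ± 41.6 CPM (-0.12 ± 0.19, adjusted p = 0.598).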

How the data were processed

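Gene counts of 8 libraries of cultured mouse microglia were used, 4 treated with LPS and 4 with vehicle. The authors deposited raw counts of uniquely aligned reads per Ensembl gene, made with HTSeqGenie after GSNAP alignment to GRCm38. The count table was not normalized, all 8 columns were mapped to a sample, and single-end reads had 50 bases. Kit and sequencer differ between the labels and the paper's methods, and the annotation release and any use of strand in counting are not given in the sources used here. Library totals of 20071921 to 30604447 counts set the precision, and intervals from counts cover counting error only. Rows without a symbol in GENCODE vM21 held 0.0155% of the counts.

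The counts were tested with edgeR 4.0.16 in R 4.3.3 (TMM normalization, genes kept by filterByExpr at its defaults of 10 counts per library and 15 in total, two-sided quasi-likelihood test, Benjamini-Hochberg over 13847 genes, threshold 0.05), without a block for the replicate number. CPM are TMM-normalized, with the SD between 4 libraries, and per kb values use the union of exons. Each SE of a log2 fold change was derived from the test, as the absolute log2 fold change over the square root of its F statistic. It is thus an approximate SE and not one fitted directly. Tables were made in Python 3.11.15 (numpy 2.4.6, pandas 2.3.3, scipy 1.17.1) and figures with matplotlib 3.10.9. On simulated data of 4 and 4 libraries edgeR called 136 of 194 changed genes among 13551 tested. Of these, 87 were changed by a log2 of 2 and 49 by a log2 of 1, and the false share was 6.21%. DESeq2 1.42.0 (Wald test) found 156 of 200, with a false share of 21.6%. The simulation changed only 200 genes, as many up as down, by a log2 of 1 or 2. It held no difference in TMM factors between the groups like that of the data, so its false shares may not hold there. Within pairs of one number, the deviations of the 2 libraries from their group means correlated over 8382 genes with r of 0.363, 0.179, 0.177 and 0.110. All were over 0.1, so the numbers were taken as pairs in the replicate block and the sign-flip test. The main fit and the permutation test did not use pairs. The labels do not say what libraries of one number share, and exchanged partners of replicates 2 and 4 correlated at 0.141 and 0.122.

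Alternatives were DESeq2, upper quartile and RLE scaling, other filters, a replicate block, a threshold of 0.01, a minimum log2 change of 1, pseudocounts of 0.1 and 5, leaving out each library and, added after seeing the data, library totals alone. The members, pathway lists and marker lists were chosen with earlier results of these data known. Named pathway genes are the 2 largest rises and the 2 largest falls of each list among genes past the threshold whose log2 CPM averaged at least 1, a set of genes of known role whatever their result, and the 3 nearest genes of Nos2 and Arg1. One gene that this rule names is not reported here.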

Additional observations from a re-analysis of the deposited data

Results flagged for a closer look

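Among the members and named pathway genes, 6 values were of single libraries far from the other 3 of their group, by the gap over the range against Dixon's critical value. With 86 groups of 4 libraries checked, chance alone would flag about 1 in 20. Arg1 in Vehicle replicate 1 was at 0.245 CPM (7 reads) against 0.0634 to 0.071 CPM in the other Vehicle libraries. Arg2 in the same library was at 20.2 CPM against 2.60 to 3.41 CPM, so that both arginases were highest in Vehicle replicate 1. Spr in Vehicle replicate 1 was at 13.4 CPM against 11.4 to 11.6 CPM. Slc7a6 was low in both libraries numbered 3, at 25.1 CPM against 35.0 to 35.9 CPM in Vehicle and at 16.7 CPM against 23.4 to 24.0 CPM in LPS. Qdpr in Vehicle replicate 3 was at 40.0 CPM against 37.3 to 37.5 CPM.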

How the results depend on the processing

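Of the 9 members, the 8 that rose kept their direction and passed the threshold in every fit run in which they were tested; Arg1 did not pass a filter of at least 10 counts in every library. Asl passed as higher with DESeq2 (0.26), with RLE scaling (0.26, adjusted p = 0.0335) and without Vehicle replicate 1 or LPS replicate 3, its log2 fold change ranging from 0.19 to 0.29 when single libraries were left out, and it was reversed and passed as lower (-0.47) with library totals alone, where 1 member was called lower. At a threshold of 0.01 Arg2 did not pass and 7 members were called higher. Among pathway genes, Adh5 turned to -0.28 with library totals alone, and Sat1, which passed as lower with library totals alone (-0.81, adjusted p = 0.001) and in no other fit run, to 0.02 without Vehicle replicate 3 and 0.031 without LPS replicate 1 (range -0.30 to 0.031 when single libraries were left out). Over all pathway lists 9 genes were called higher with library totals alone and 8 with a minimum log2 change of 1. Over all genes, 1988 higher and 8457 lower were called with library totals alone, and 2224 and 2998 with the minimum change. Upper quartile scaling moved all log2 changes by a median of -0.16. The log2 ratio of Nos2 to Arg1 ranged from 2.90 to 3.80 when single libraries were left out, and without Vehicle replicate 1 or LPS replicate 4 the exact permutation test gave p = 0.0571. With the replicate block the 5 ratios kept their values (3.36 for Nos2/Arg1, 7.39 for Arg1/Arg2, 3.74 for Ass1/Asl, 6.46 for Slc7a2/Slc7a1 and -7.66 for Odc1/Arg1), with p = 0.125 each in the exact sign-flip test, which says nothing about their stability since 4 pairs allow no smaller p. Besides these and Pts, the block changed no call of a member or named gene. The cause of these shifts was not tested. The Vehicle level of Arg1 rests on 13 reads in all, and 19 of 87 pathway genes were too low to be tested, 5 of them at 0 in every library.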

Other observations

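Gm26584, a gene on the strand opposite to Slc7a2 that overlaps its exons, had no read in any Vehicle library and 71, 21, 20 and 46 reads in LPS replicates 1 to 4, an average of 2.20 CPM. It was singled out after its values were seen. Whether these reads come from a transcript of that strand or from Slc7a2 itself cannot be told apart without knowing how strand was used in counting.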
